A study of Mus musculus with 13 samples.

Results

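The miRNAs described here are mmu-miR-10a-5p, mmu-miR-10b-5p, mmu-miR-196a-5p and mmu-miR-196b-5p, the 5′ arms of the miR-10 and miR-196 hairpins that lie inside the Hox gene clusters. They were taken by name, as 4 of the 1079 mouse miRNAs on the array, when earlier results of these data were known. Their levels were compared between flank tumors of curcumin-treated mice (n = 7) and of controls on a normal diet (n = 6).

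All mice were male C57BL/6, and no age was given. B78H1 cells, an amelanotic mouse melanoma line that was cloned from B16 cells and lacks Tap-2 and MHC-I, were injected under the skin of both flanks, with 100000 cells per flank. Treated mice received chow with 4% curcumin, a plant polyphenol, from 14 days before the injection, and controls received the same chow without it. Tumors were taken 28 days after the injection, and 1 tumor sample per mouse was hybridized to 1 array, with the flank not given. The samples are bulk tumor RNA from 1 cell line grown in mice with their own stroma and immune cells, so fewer cells of a type and less RNA per cell cannot be told apart.

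Hox genes encode transcription factors that specify position along the body axis, and the hairpins of miR-10 and miR-196 sit among them in positions that are conserved across vertebrates. The miRNAs lower the output of mRNAs that carry a match to their seed, the stretch near the 5′ end that pairs first with a target. Several Hox mRNAs are among their known targets, such as Hoxd10 for miR-10b and Hoxb8 for miR-196, and miR-10b is well known from work on invasion of carcinoma cells.

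The 4 mature sequences are shown because the members of each pair are nearly identical, which bears on every comparison between them. They were taken from RefSeq (GRCm38.p6), which held all 4, and capitals mark the seed, bases 2 to 8.
mmu-miR-10a-5p: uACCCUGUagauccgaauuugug
mmu-miR-10b-5p: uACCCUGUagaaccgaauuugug
mmu-miR-196a-5p: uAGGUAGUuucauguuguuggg
mmu-miR-196b-5p: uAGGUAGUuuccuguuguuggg

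The miR-10 sequences are 23 bases long and the miR-196 sequences 22 bases long. Counted from the 5′ end, miR-10b differs from miR-10a by U12A alone, and miR-196b differs from miR-196a by A12C alone. The seed is therefore the same within each pair and differs between the pairs. Of the 1079 array miRNAs, 840 had a sequence under the same name, and among these no other miRNA carried either seed. The probe sequences were not used here, so how much of the signal of one relative came from the other was not tested.

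The coordinates given here are those of the mature 5′ arms in GRCm38.p6, not of the whole hairpins. Mir10a lies at chr11:96317186-96317208 on the plus strand, within the span of Hoxb3 and next to Hoxb4. Mir10b lies at chr2:74726074-74726096 on the plus strand, within the spans of Hoxd3 and Hoxd4. The mature miR-196a comes from 2 hairpins, Mir196a-1 at chr11:96265187-96265208 between Hoxb13 and Hoxb9, and Mir196a-2 at chr15:102973365-102973386 between Hoxc10 and Hoxc9, both on the plus strand. Mir196b lies at chr6:52230129-52230150 on the minus strand between Hoxa9 and Hoxa10. The miR-196a values therefore add up transcripts of the Hoxb and the Hoxc cluster, which cannot be told apart from the 5′ arm.

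The values are the deposited log2 values of each miRNA, quantile normalized over the 13 arrays. A constant of 4.39 had been added to the signals before the log2 step, which shrinks the differences of dim miRNAs. The scanner software marked 272 to 370 mouse miRNAs as detected in curcumin-treated tumors and 313 to 412 in controls, and no spot was saturated. Curcumin-treated tumor 5 had the fewest detected miRNAs and the lowest total signal. The arrays lay on 2 slides, with 3 curcumin-treated and 2 control tumors on slide 1 and 4 of each on slide 2. On both slides the controls lay in the first row of arrays and the curcumin-treated tumors in the second, so the array position and the diet cannot be told apart. The p-values measure the spread between these tumors. A share of 20.9% of all miRNAs passed the threshold between the diets (226 of 1079, limma with Benjamini-Hochberg adjusted p below 0.05), 103 of them higher and 123 lower in curcumin-treated tumors.

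Both miR-10 members were higher in curcumin-treated tumors, and neither miR-196 member passed the test. miR-10a-5p was 2.62-fold and miR-10b-5p 3.10-fold higher, and all 7 curcumin-treated tumors lay above all 6 controls for both. miR-196a-5p was detected in no control and lay above the highest control in 3 of 7 curcumin-treated tumors. miR-196b-5p was detected in all tumors, with overlapping levels in both diets. The count of 2 higher members of 4 stands beside a share of 9.55% higher among all miRNAs, and beside 20.7% higher among the 304 miRNAs detected on every array of at least one diet. The 2 members without overlap of the diets stand beside 4.17% of all miRNAs with every curcumin-treated tumor above every control, and 1.76% with every one below.

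**Figure D1:**
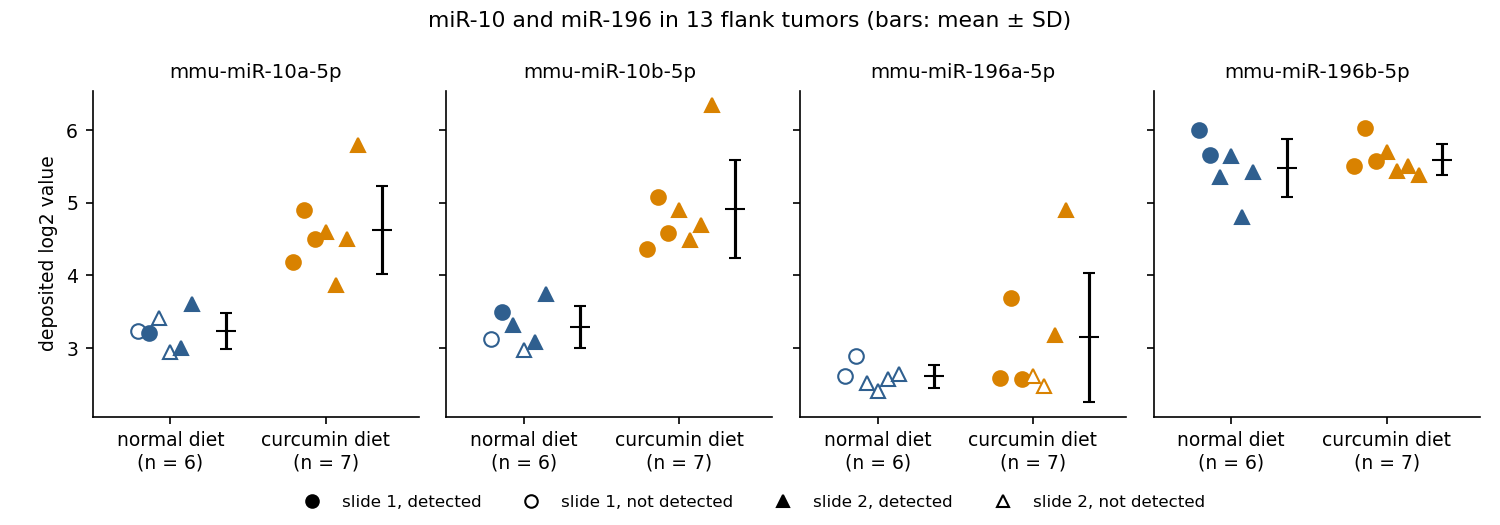
Deposited log2 value (vertical axis) of each of the 4 miRNAs in 6 control and 7 curcumin-treated tumors, with circles for slide 1, triangles for slide 2, open symbols where the miRNA was not detected on that array, and the mean ± SD beside each group. The diets are apart for both miR-10 members, miR-196a-5p is open in all 6 controls, and miR-196b-5p overlaps throughout.

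miR-10a-5p, encoded in the Hoxb cluster, had log2 values from 3.87 to 5.80 in curcumin-treated tumors (median 4.50) and from 2.95 to 3.60 in controls (median 3.22). The diets did not overlap. Curcumin-treated tumor 5 was the lowest of its diet and tumor 7 the highest. The mean was 4.62 ± 0.61 (SD, n = 7) against 3.24 ± 0.25 (SD, n = 6), a log2 difference of 1.39 ± 0.25 (SE), with a 95% confidence interval of the fold change from 1.81 to 3.78. The adjusted p over all miRNAs was 0.00153 (limma, Benjamini-Hochberg), and an exact two-sided permutation test, which runs through all 1716 ways to split the tumors, gave p = 0.00117. The software detected it in all 7 curcumin-treated tumors and in 3 of 6 controls, so the control mean includes 3 tumors without a detected level. The order of the controls did not follow detection. Control 3, where it was not detected, was at 3.42, and control 5, where it was detected, at 3.00. Their probe sums before normalization were 4.28 and 10.13. With all probes summed on every array the log2 difference was 1.30 (limma adjusted p = 0.001955).

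miR-10b-5p, encoded in the Hoxd cluster, had log2 values from 4.36 to 6.34 in curcumin-treated tumors (median 4.69) and from 2.97 to 3.74 in controls (median 3.22). Again no curcumin-treated tumor fell into the range of the controls, and tumor 7 stood above the other 6, the next of which was at 5.08. The mean was 4.92 ± 0.67 (SD, n = 7) against 3.29 ± 0.29 (SD, n = 6). The log2 difference was 1.63 ± 0.27 (SE), with a 95% confidence interval of the fold change from 2.06 to 4.66. The limma adjusted p was 0.00105 (Benjamini-Hochberg), and the exact two-sided permutation test gave p = 0.000583, the smallest that these group sizes allow. The software detected it in all 7 curcumin-treated tumors and in 4 of 6 controls. One of these was control 3, where none of the replicate spots of miR-10b-5p was well above background.

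Within slide 1 alone, the log2 difference was 1.31 for miR-10a-5p (limma adjusted p = 0.0223) and 1.36 for miR-10b-5p (limma adjusted p = 0.0254). Within slide 2 alone it was 1.45 and 1.83, and the adjusted p of 0.0796 and 0.0537 by limma no longer passed the threshold. Without normalization between arrays the differences of the scanner sums were 1.61 and 1.77, with limma adjusted p of 0.105 and 0.0970. Quantile-normalized sums of the same signals gave 1.84 and 1.95. Both calls were therefore lost on slide 2 and without normalization.

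miR-196a-5p ranged from 2.48 to 4.90 in curcumin-treated tumors (median 2.62) and from 2.41 to 2.88 in controls (median 2.60). The medians lay next to each other, and tumors 2, 6 and 7 were the curcumin-treated tumors above the highest control. The mean was 3.15 ± 0.89 (SD, n = 7) against 2.61 ± 0.16 (SD, n = 6). The log2 difference of 0.54 ± 0.34 (SE) had a 95% confidence interval from -0.19 to 1.26 and did not pass the test (limma adjusted p = 0.309, exact two-sided permutation p = 0.180). Without curcumin-treated tumor 7 the difference was 0.25.

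By the marks of the software, miR-196a-5p was detected in 5 of 7 curcumin-treated tumors and in no control, a pattern of at least 5 and none that 0.834% of all miRNAs showed (9 of 1079). Since it was detected in no control, each control was set to the lowest detected level of its array, or to its own value in controls 2, 5 and 6, where that was higher. Against the mean of these levels its mean in curcumin-treated tumors was 1.33-fold higher. This is no lower bound on a rise, since the measured means of 3.15 and 2.61 did not pass the test (limma adjusted p = 0.309). The 95% confidence interval of the measured fold change ran from 0.88 to 2.40. Low values of this miRNA have no order. The detected value in curcumin-treated tumor 1 was 2.58, while the value of control 2, where it was not detected, was 2.88.

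miR-196b-5p, encoded in the Hoxa cluster, ranged from 5.39 to 6.03 in curcumin-treated tumors (median 5.51) and from 4.81 to 6.00 in controls (median 5.53). The diets overlapped almost fully, and control 5 was the lowest tumor. The mean was 5.59 ± 0.22 (SD, n = 7) against 5.48 ± 0.40 (SD, n = 6). The log2 difference was 0.11 ± 0.17 (SE), with a 95% confidence interval from -0.25 to 0.47, and did not pass the test (limma adjusted p = 0.728, exact two-sided permutation p = 0.560). The interval leaves room for a 1.39-fold rise at most, or a fall to 0.839 of the controls. It was the only one of the 4 that was detected on all 13 arrays.

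The share of replicate spots above background was read before any normalization, and it follows the brightness of the array too. Over all spots of an array it was lowest in curcumin-treated tumor 5 (19.0%) and highest in controls 2 and 5 (26.8% and 29.6%). Each member was printed in 40 spots, shared by 2 probes for miR-10a, miR-10b and miR-196b and by 4 probes for miR-196a. For miR-10a-5p, between 7.5% and 100% of the spots were well above background in curcumin-treated tumors (median 92.5%) and between 0% and 40% in controls (median 13.8%). For miR-10b-5p the range was 30% to 100% (median 82.5%) against 0% to 50% (median 22.5%). In curcumin-treated tumors 2 and 7 all spots of both miRNAs were well above background, and in controls 1, 3 and 4 none was. Tumor 5 was the one curcumin-treated tumor inside the range of the controls. An exact two-sided permutation test of the mean share gave p = 0.00816 for miR-10a-5p and p = 0.00991 for miR-10b-5p, out of 4 such tests.

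**Figure D2:**
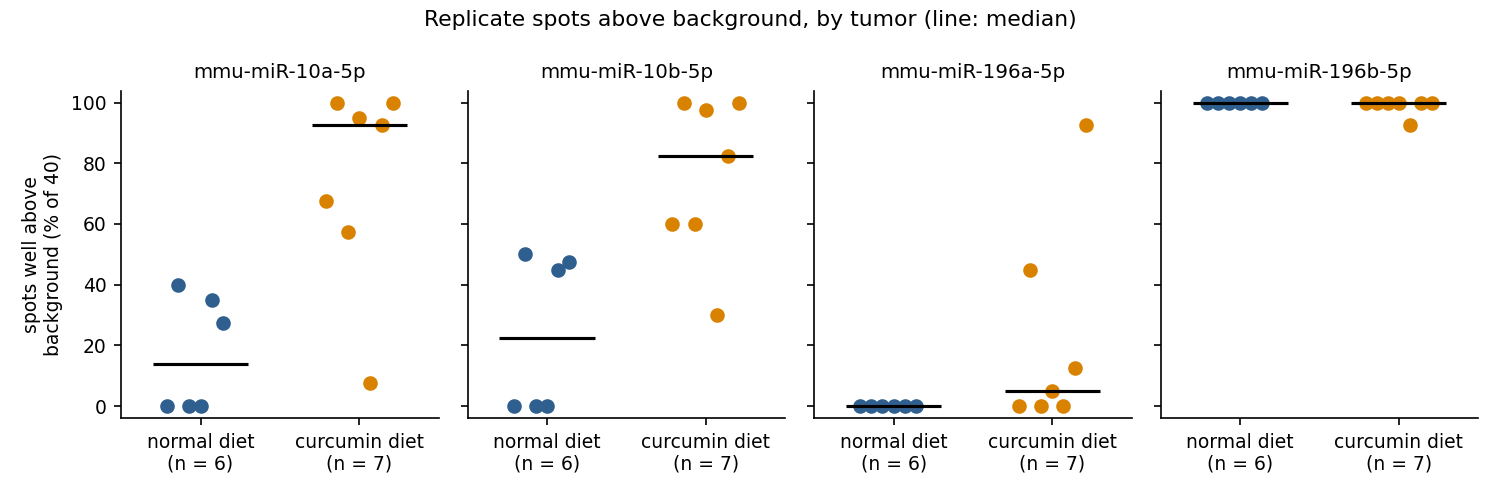
Share of the 40 replicate spots of each miRNA that lay well above background (vertical axis, percent) in each control and curcumin-treated tumor, with a line at the median of the group. The medians of miR-10a-5p are 13.8% and 92.5%, those of miR-10b-5p 22.5% and 82.5%, no control has a spot of miR-196a-5p above background, and miR-196b-5p is at 92.5% or more on all arrays.

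For miR-196a-5p, tumor 7 had 92.5% of the spots well above background, tumor 2 had 45%, tumor 6 had 12.5% and tumor 4 had 5%. The other 3 curcumin-treated tumors and all 6 controls had none (exact two-sided permutation p = 0.119). The detection mark of the software and the spots did not go together in every tumor, since tumors 1 and 3 were marked as detected with no spot well above background and tumor 4 was not marked with 2 such spots. For miR-196b-5p all spots were well above background on 12 arrays, and 92.5% in curcumin-treated tumor 5 (exact two-sided permutation p = 1.00).

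The 2 probes of each miR-10 member moved the same way. In the first probe of miR-10a-5p the background-subtracted signal before normalization had a median of 5.97 in curcumin-treated tumors and 1.96 in controls, and in the second probe 13.21 and 4.69. For miR-10b-5p the medians were 5.70 and 1.92 in the first probe and 15.35 and 6.03 in the second. The first probe of either miRNA had no spot well above background in any control. Summed over the probes, miR-10a-5p ranged from 5.05 to 53.52 in curcumin-treated tumors and from 2.88 to 10.13 in controls, and miR-10b-5p from 7.87 to 84.20 and from 3.01 to 13.46. Tumor 5, the dimmest array, was the one curcumin-treated tumor inside the range of the controls before normalization.

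The change of one member was also set against that of another within the same tumors, which cancels what acts on a whole array alike. All 6 pairs were compared with an exact two-sided permutation test of the per-tumor log2 difference, and p-values were adjusted over the 6 pairs. The rise of miR-10a-5p was larger than the change of miR-196b-5p by 1.28 on the log2 scale (exact p = 0.00117, adjusted 0.00233), and that of miR-10b-5p by 1.52 (exact p = 0.000583, adjusted 0.00175). Since miR-196a-5p was detected in no control, contrasts with it have no measured level on the control side and depend on the constant and the floor. Both miR-10 members thus changed more than miR-196b-5p in the same tumors, in pairs that were added after seeing the data. The exact p stayed below 0.05 under all 8 other ways of making the values. These are not 8 separate checks, since without a constant a scaling of a whole array cancels within a tumor. Both scalings and no normalization gave the same 1.65 and 1.82, and both floors on scanner sums the same 1.71 and 1.82. The contrasts with miR-196a-5p were 0.85 for miR-10a-5p and 1.09 for miR-10b-5p on the deposited values, and 0.22 and 0.34 on quantile-normalized scanner sums without the constant, and nothing is drawn from them.

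Within the miR-10 pair, the difference of miR-10a-5p was 0.24 smaller than that of miR-10b-5p (exact permutation p = 0.0367, adjusted 0.0440). This inequality did not hold up. Leaving out curcumin-treated tumor 4, 5 or 7 or control 1, 3, 4 or 5 raised the exact p to between 0.0556 and 0.0859, with differences from -0.25 to -0.19. With all probes summed on every array it was -0.13 (exact p = 0.202), whereas the deposited values add up the detected probes alone where a miRNA is detected. Within the miR-196 pair, where the control side of miR-196a-5p again has no detected level, miR-196a-5p differed from miR-196b-5p by 0.43 (exact permutation p = 0.370, adjusted 0.370). On quantile-normalized scanner sums without the added constant that difference was 1.49 (exact p = 0.0321), and the change of miR-196a-5p itself was 1.62 (limma adjusted p = 0.107).

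**Figure D3:**
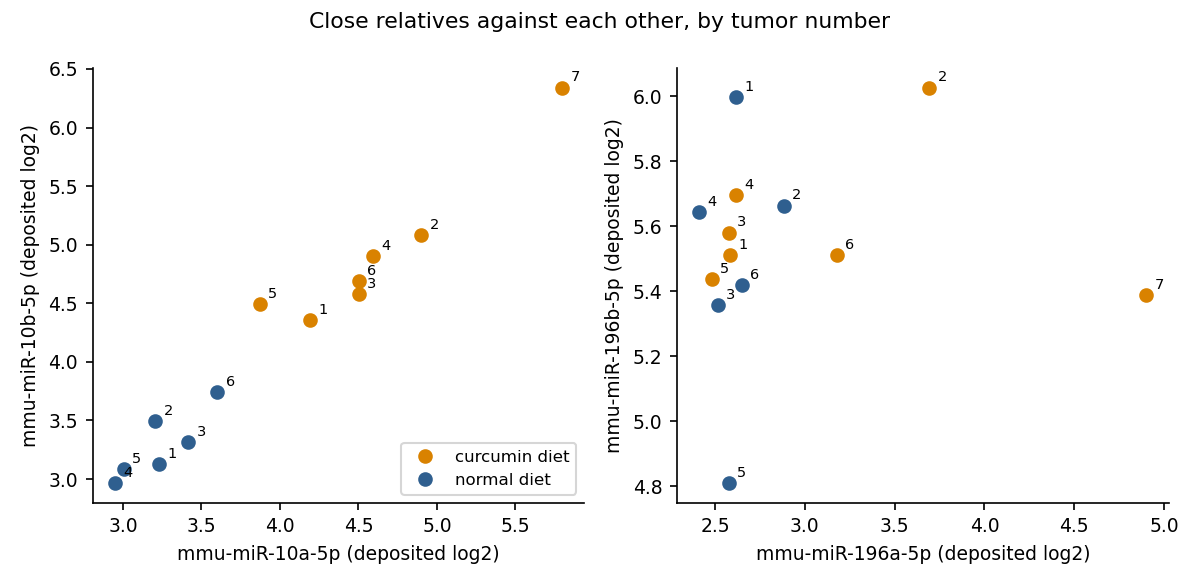
Deposited log2 value of miR-10b-5p against miR-10a-5p (left) and of miR-196b-5p against miR-196a-5p (right), 1 point per tumor with its number, orange for curcumin-treated tumors and blue for controls. Within curcumin-treated tumors and controls r is 0.952 and 0.854 for the miR-10 relatives. miR-196a-5p was detected in none of the controls on the right.

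Across curcumin-treated tumors, miR-10a-5p and miR-10b-5p went together. In 7 curcumin-treated tumors Pearson's r was 0.952 (exact permutation p = 0.00198, adjusted over 4 relations 0.00794) and Spearman's rho 0.955 (exact permutation p = 0.00318, adjusted 0.0127), and r was 0.957 without the 2 tumors farthest from the median. In 6 controls r was 0.854 (exact permutation p = 0.0319, adjusted 0.0639) and rho 0.829 (exact permutation p = 0.0583, adjusted 0.117). Without the 2 farthest controls r was 0.458, with 4 controls left. Of the 6 controls, miR-10a-5p was detected in 3 and miR-10b-5p in 4, so nothing is drawn from the relation among controls. These 2 measures share their arrays and have 22 of 23 bases in common.

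For miR-196a-5p and miR-196b-5p no relation passed the test in curcumin-treated tumors, 2 of which had no detected miR-196a-5p. There r was -0.021 and rho 0.036 (exact permutation p = 0.952 for both, adjusted 0.952), and without the 2 farthest tumors r was -0.053. In controls, where miR-196a-5p was not detected, the relation could not be tested. Tumor 7 had the highest miR-196a-5p value of all tumors and the lowest miR-196b-5p value among the curcumin-treated ones.

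The other miRNAs of the Hox clusters were below detection. The opposite arms miR-10a-3p, miR-10b-3p, miR-196a-1-3p, miR-196a-2-3p and miR-196b-3p, and both arms of miR-615, which lies within Hoxc5, were detected on none of the 13 arrays. None of these 7 passed the test in either direction by limma, and none had an unadjusted p below 0.05. Their median log2 difference was 0.02, beside 6.26e-04 over all miRNAs. The opposite arms of Mir196a-1 and Mir196a-2 are shown because they differ where the 5′ arms are identical, and no base is in capitals.
mmu-miR-196a-1-3p: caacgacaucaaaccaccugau
mmu-miR-196a-2-3p: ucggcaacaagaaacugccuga
With neither detected, the share of the Hoxb and Hoxc copies in the miR-196a-5p signal was not measurable on these arrays.

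Relatives of the members outside the Hox clusters are miR-99 and miR-100, which resemble miR-10, and the let-7 family, whose seed overlaps that of miR-196 with an offset of 1 base. miR-100-5p and let-7a-5p are shown for this comparison, with bases 2 to 8 in capitals.
mmu-miR-100-5p: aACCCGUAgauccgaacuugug
mmu-let-7a-5p: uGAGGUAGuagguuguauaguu
miR-10a-5p and miR-100-5p share a run of 11 bases, but their seeds differ. All 9 let-7 members listed, miR-98 included, carry at bases 3 to 8 what miR-196 carries at bases 2 to 7, and none carries the whole miR-196 seed.

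In the miR-99 and miR-100 group, 2 of 3 rose in curcumin-treated tumors, beside the same background of 20.7% among miRNAs that one diet detected throughout. miR-100-5p had a mean log2 value of 8.21 ± 0.47 (SD, n = 7) against 7.25 ± 0.24 (SD, n = 6), a difference of 0.96 ± 0.20 (SE, limma adjusted p = 0.00507). miR-99b-5p differed by 0.83 ± 0.16 (SE, limma adjusted p = 0.00219). miR-99a-5p differed by -0.18 ± 0.27 (SE, limma adjusted p = 0.726). All 3 were detected on every array.

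In the let-7 group, 1 of 9 rose, a share near the 9.55% of all miRNAs that were higher and below the 20.7% among those detected on every array of a diet. let-7e-5p, which is encoded next to miR-99b, differed by 0.87 ± 0.18 (SE, limma adjusted p = 0.00387). The other 8 did not pass the test, with differences from -0.28 for let-7g-5p to 0.34 for let-7b-5p, and the median of the group was 0.12. All 9 were detected on every array. miR-99b-5p, miR-100-5p and let-7e-5p kept their direction under all alternatives, and their calls were lost without normalization and on slide 2 alone, and that of miR-100-5p on slide 1 alone too. The members let-7a-5p, let-7b-5p, let-7f-5p and let-7i-5p passed under 1 to 3 of 16 alternatives, and let-7b-5p, let-7c-5p and let-7g-5p with 1 or 2 of the 13 arrays left out in turn.

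**Figure D4:**
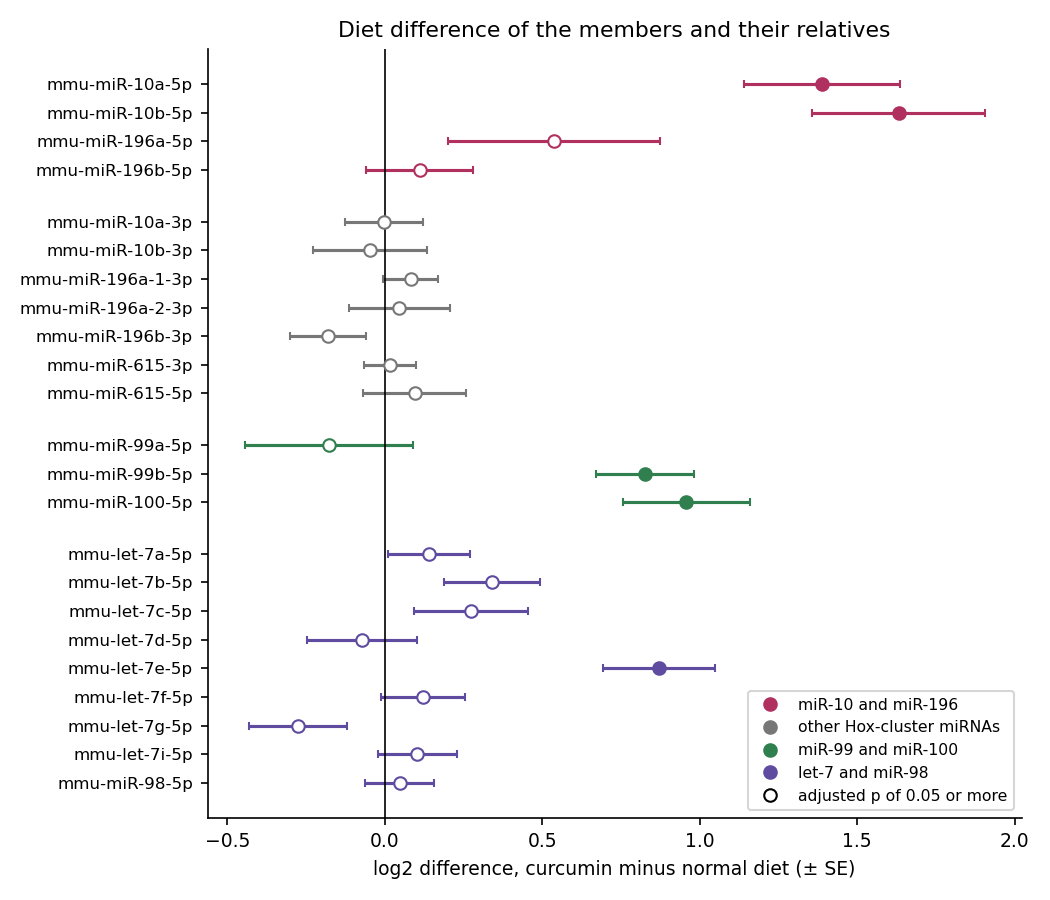
Log2 difference between the diets (horizontal axis, curcumin-treated minus control, bars ± SE) for the 4 miRNAs, the other Hox-cluster miRNAs, miR-99 and miR-100, and let-7 with miR-98. Filled points have a limma adjusted p below 0.05, which holds for miR-10a-5p, miR-10b-5p, miR-99b-5p, miR-100-5p and let-7e-5p.

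The miRNAs most like each member were taken by Pearson's r over the 13 tumors after the mean of each diet was subtracted, among 342 miRNAs detected on at least 7 arrays. For miR-10a-5p they were miR-127-3p (r = 0.922), miR-195-5p (r = 0.917) and miR-497-5p (r = 0.903). For miR-10b-5p they were miR-127-3p (r = 0.956), miR-434-3p (r = 0.945) and miR-300-3p (r = 0.938). The 3 named for miR-10b are encoded on chromosome 12, away from the Hox clusters. For miR-196b-5p they were miR-28-5p (r = 0.927), miR-378-5p (r = 0.925) and miR-30a-3p (r = 0.919), so no miRNA was named for both families. miR-196a-5p was detected on too few arrays for this ranking. These r describe 13 tumors that share arrays and normalization.

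Some miRNA markers of cell types other than the tumor cells differed between the diets as well. Counts called higher stand beside 9.55% of all miRNAs and 20.7% of those detected on every array of a diet. All 4 hematopoietic markers (miR-142-3p, miR-142-5p, miR-223-3p and miR-150-5p) were higher in curcumin-treated tumors by limma, and their summed level, the sum of 2 to the power of each deposited log2 value, was 358.5 to 1364.1 against 100.7 to 303.1 in controls. Of 5 fibroblast markers 3 were higher, miR-199a-5p, miR-199a-3p and miR-214-3p, while miR-143-3p and miR-145-5p were not, and the sum was 518.4 to 1115.0 against 181.7 to 414.3. Under other processing all 7 of these called markers kept their direction, and calls were lost under 4 of 16 alternatives for miR-223-3p, 5 for miR-214-3p, 2 for miR-142-5p and miR-199a-5p and 1 for miR-142-3p and miR-199a-3p, and under 1 of 15 for miR-150-5p. Each of them was lost on slide 2 alone, without normalization, or both. Curcumin-treated tumor 7, the highest in both miR-10 members, was the highest in both sums, and tumor 5, the lowest in miR-10a-5p, was the lowest curcumin-treated tumor in both. In miR-10b-5p the lowest curcumin-treated tumor was instead tumor 1, at a log2 value of 4.36. Its hematopoietic sum was 585.5 and its fibroblast sum 959.0, neither of them the lowest of its diet.

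Each of the other lists held 1 called marker, beside 9.55% of all miRNAs called higher and 11.4% called lower. Nothing is drawn from 1 call in a list this short. In the endothelial list 1 of 2 markers was higher, with sums of 262.8 to 826.5 against 145.7 to 289.4, and again tumor 7 was the highest. That call, of miR-126-3p, was lost when curcumin-treated tumor 2 or 6 or control 1, 3, 4 or 5 was left out, with log2 differences from 0.61 to 0.93 over all 13 arrays left out in turn. It was also lost under 9 of the 16 other alternatives, among them both forms of the methods' t-test, no normalization and each slide alone. Of 7 epithelial markers 1 was higher, miR-205-5p, a call lost under 2 of 16 alternatives, with sums of 241.5 to 1763.1 against 25.9 to 188.8, and 5 of the 7 were detected on no array. Of 4 skeletal muscle markers 1 was higher, miR-206-3p, a call lost under 3 of 16 alternatives, with sums of 45.6 to 979.0 against 38.2 to 624.7, and tumor 7 was the lowest curcumin-treated tumor. Of the 2 melanocytic markers miR-211-5p fell by 4.17 on the log2 scale (limma adjusted p = 0.00726), with a detected level in 4 of 7 curcumin-treated tumors and in all 6 controls, and the call was lost under 3 of 16 alternatives. The sums of that list were 12.8 to 631.6 against 317.0 to 855.2, with tumor 5 the highest of the curcumin-treated tumors. The other arm of the same hairpin, mmu-miR-211-3p, was added after its values were seen. It was detected in all 13 tumors and fell by 0.82 on the log2 scale (limma adjusted p = 0.0328). The 2 arms thus fell unequally, and nothing is drawn from the added arm. Without tumors 5 and 7 the log2 difference was 1.30 for miR-10a-5p (limma adjusted p = 6.31e-05) and 1.43 for miR-10b-5p (limma adjusted p = 6.94e-05). This fit was not planned. It leaves out the lowest and the highest curcumin-treated tumor of miR-10a-5p and the highest of miR-10b-5p, which narrows the spread. Nothing is drawn from the smaller p. The part of these cell types in the miR-10 difference was not tested.

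**Figure D5:**
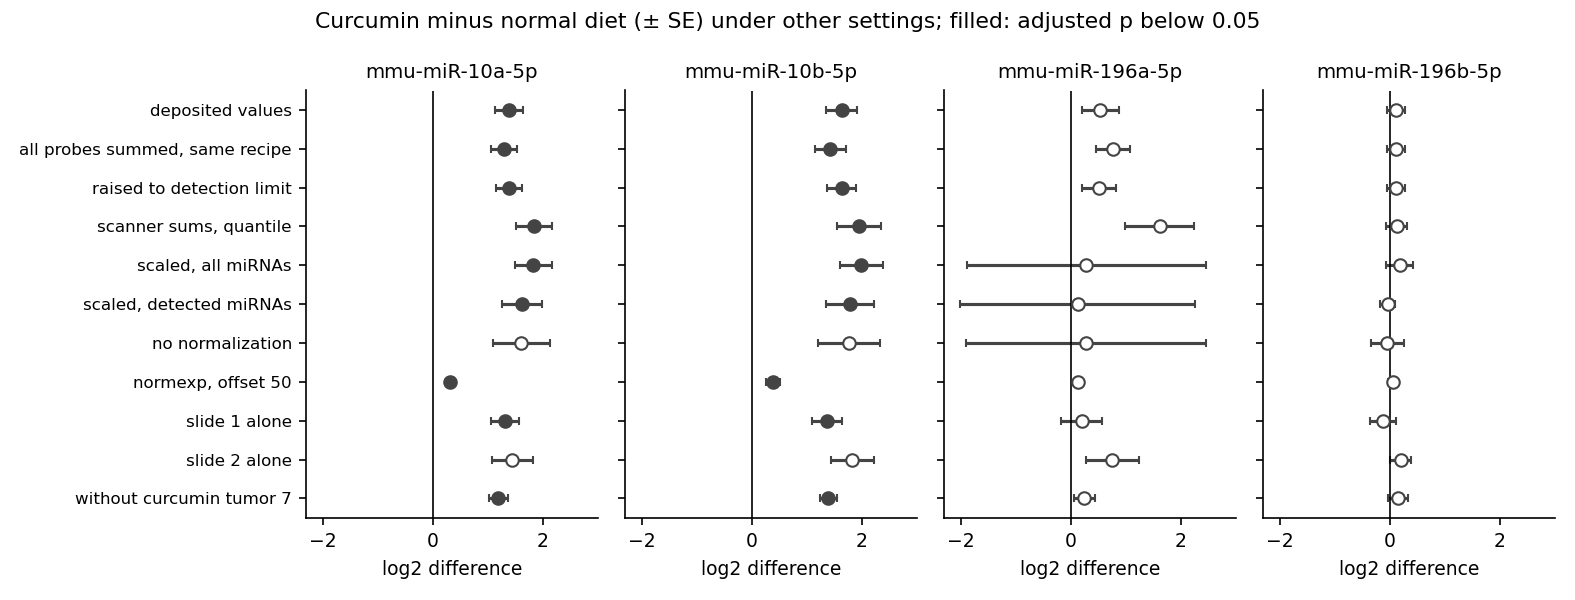
Log2 difference between the diets (horizontal axis, curcumin-treated minus control, bars ± SE) of the 4 miRNAs under 11 ways of processing, filled where the limma adjusted p is below 0.05. Both miR-10 members lie above 0 under each, from 0.32 to 1.84 for miR-10a-5p and from 0.39 to 1.99 for miR-10b-5p, while miR-196a-5p is never filled and miR-196b-5p lies between -0.13 and 0.20.

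The size of the miR-10 difference depended on how dim signals were treated. On quantile-normalized scanner sums, without the constant, the log2 difference was 1.84 ± 0.33 (SE) for miR-10a-5p (limma adjusted p = 0.00431) and 1.95 ± 0.40 (SE) for miR-10b-5p (limma adjusted p = 0.00840), in a fit in which 8.34% of all miRNAs were higher. With a background model that adds an offset of 50 to each spot it was 0.32 ± 0.080 (SE, limma adjusted p = 0.0179) and 0.39 ± 0.12 (SE, limma adjusted p = 0.0433). The direction and the call were the same under both, and the fold change of a miRNA this dim is set in part by the constant.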

How the data were processed

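Total RNA of 13 flank tumors (7 curcumin diet, 6 normal diet, 1 tumor and 1 array per mouse) was labeled in 1 color and hybridized to miRNA arrays. Groups and replicate numbers came from the sample titles. Intensity values of spots and probes were read by the authors from the scans (Feature Extraction, version 10.10.1.1). That software removes the background and flags spots and miRNAs above it. They deposited log2 values that were summed per miRNA and quantile normalized. All 14027 deposited log2 values were met within 1e-04 by 1 recipe: for a detected miRNA its detected probes were summed, for any other all of its probes, followed by quantile normalization, addition of 4.39 and log2. No 2 arrays held equal values, and the number of arrays limits the precision.

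A two-sided limma fit without covariates (lmFit, eBayes, version 3.58.1 under R 4.3.3) compared curcumin-treated tumors with controls over 1079 miRNAs, with Benjamini-Hochberg adjustment, a threshold of 0.05, and exact permutation tests (1716 splits) beside it. The fit was tested on simulated data. Pairs of members were compared by permuting per-tumor differences, and 4 of the 6 pairs were added after seeing the data. The members, the lists of relatives and the marker lists were chosen with earlier results of these data known. The miRNAs named were the 4 members, the lists, and the 3 most alike miRNAs per member detected on at least 7 arrays. The 1.33-fold value of miR-196a-5p sets its mean in curcumin-treated tumors against the lowest detected miRNA of each control array. The miRNA's own value was used where it was higher. The paper gives a release of miRBase as the basis of the arrays and names no assembly, so coordinates are those of the RefSeq sequence table alone. Tested alternatives were other scalings, floors, filters and background models, the slide, the replicate number, the methods' t-test, and each array left out.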

Additional observations from a re-analysis of the deposited data

Results flagged for a closer look

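Curcumin-treated tumor 7 stood apart from the other 6 of its diet for miR-10b-5p. Its log2 value was 6.34 and the next was 5.08, so that the gap took up 0.636 of the whole range, above Dixon's critical value of 0.568 for 7 samples. Chance marks about 1 group in 20 in this way, and 8 groups were examined. Without this tumor the log2 difference between the diets was 1.39 for miR-10b-5p, and it passed the test by limma. The same tumor was the highest in the hematopoietic sum (1364.1), the fibroblast sum (1115.0) and the endothelial sum (826.5), and their part in its miR-10b-5p value was not tested.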

How the results depend on the processing

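Both miR-10 members stayed higher in curcumin-treated tumors under all 16 alternatives other than leaving out an array, and passed the threshold under 14. These are not 16 separate checks. The filter on detected miRNAs, both t-tests and values raised to the lowest detected miRNA left the differences at 1.39 and 1.63. Both floors on scanner sums gave the same 1.84 and 1.95. The filter kept both members only through curcumin-treated tumors, since neither was detected in every control. Without normalization the log2 differences were 1.61 and 1.77 (adjusted p = 0.105 and 0.0970), and on slide 2 alone 1.45 and 1.83 (0.0796 and 0.0537), where 8 arrays remain. With each array left out the ranges were 1.19 to 1.51 and 1.39 to 1.72, all past the threshold. miR-196a-5p passed under none of 15, from 0.12 to 1.62, and from 0.25 to 0.65 with an array left out. miR-196b-5p turned sign, and was called under none, with scaling to detected miRNAs (-0.037), without normalization (-0.047), on slide 1 alone (-0.13) and without control 5 (-0.024, range -0.024 to 0.21).

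The number of miRNAs past the threshold was 226 (103 higher), 138 with scaling to detected miRNAs, 105 with scaling to all miRNAs (73 higher and 32 lower), 49 without normalization (10 higher and 39 lower), 111 on slide 1, 15 on slide 2 and 147 with the methods' t-test with unequal variances, and 157 to 250 with an array left out. The number of other Hox-cluster miRNAs past the threshold was 0 under every setting run, and at an unadjusted p below 0.05 it reached 2 with the offset of 50. The cause of these shifts was not tested.

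The difference of miR-10a-5p against miR-10b-5p lost its call on scanner sums with either floor (-0.11), with either scaling or none (-0.16), with the offset of 50 (-0.067), with all probes summed (-0.13), on slide 1 (-0.050) and without tumors 5 and 7 (-0.13), and ranged from -0.29 to -0.19 with an array left out. That of miR-196a-5p against miR-196b-5p passed on scanner sums with the low floor (1.49) and a floor of 1 (1.47), with no detected miR-196a-5p in controls, and 0.10 to 0.56 with an array left out.

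Replicate numbers did not pair the tumors, as same-numbered tumors deviated together with r from -0.257 to 0.212. With the replicate block the differences were 1.19, 1.39, 0.25 and 0.14 for miR-10a-5p, miR-10b-5p, miR-196a-5p and miR-196b-5p, 164 miRNAs passed, and miR-10a-5p against miR-10b-5p was -0.20 (exact permutation p = 0.0938). Background correction on mean spot signals and limma blocks for the pair differences were not run, and the filter on detected miRNAs gives no value for miR-196a-5p. Signals near background limit the fold changes of miR-10 in controls and of miR-196a throughout.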
